A study of Mus musculus with 189 samples.

Results

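The cells described here are 31 peritoneal basophil-mast cell progenitors (BMCPs) that carried almost no granzyme B (Gzmb) transcript, set against the 94 mature mast cells of the same experiment, 125 of 189 single cells in all. A BMCP was taken when it had at least 100000 reads on mouse genes, Cpa3 (mast cell carboxypeptidase A) at 1000 CPM or more (reads of a gene scaled to a common total of reads on all genes of a cell), and Gzmb under 100 CPM. Of the 95 BMCPs, 60 passed the same minimums with Gzmb at 100 CPM or more and are called Gzmb-high BMCPs, 2 fell under the Cpa3 minimum and 2 under the read minimum. Because Gzmb and Cpa3 chose the cells, their values are a description. The highest Gzmb level inside the rule was 27.9 CPM, in BMCP number 40, and the next was 10.3 CPM. The lowest outside it was 543 CPM and the next 948 CPM, and the highest mature mast cell had 15.9 CPM. The lowest Cpa3 level inside the rule was 3729 CPM, again in number 40, followed by 38028 CPM. The comparison asks what still differs from mature mast cells once the Gzmb-high cells are set aside.

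The donors were 4 female C57BL/6 mice, whose peritoneal cells were sorted. The labels named no treatment or genotype, and age was not given in the sources used here. Sorting took live Lin- cells (free of lineage markers) that were c-Kit+ and FcεRI+, FcεRI being the receptor that binds IgE with high affinity. BMCPs were the fraction with high surface integrin β7 and low side scatter, and mature mast cells the fraction with low integrin β7 and high side scatter. The labels did not tie a cell to a mouse, so each side was 1 pooled sample: no test was possible, and all intervals cover counting error only.

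Mast cells are tissue-resident granulocytes that arise from bone marrow progenitors and complete their maturation in tissues such as the peritoneal cavity and the skin. Their cytoplasm fills with granules in which proteases (chymases, tryptases and carboxypeptidase A) and biogenic amines are bound to heparin on the serglycin core protein, and FcεRI crosslinking releases them. In connective tissue-type mast cells of the mouse, the chymases Mcpt4 and Cma1 and receptors of the Mrgprb family, which respond to cationic peptides and drugs, belong to the mature set. Basophils share FcεRI with mast cells and carry the protease Mcpt8.

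Mcpt4 and Mrgprb1 are the markers of the mature state used below, and each has a close relative that is already abundant in BMCPs: Cma1 in the same protease cluster as Mcpt4, and Mrgprb2 beside Mrgprb1. The 250 bases before the start of each of these 4 genes (RefSeq, GRCm38.p6, all on the minus strand) are shown because Mcpt4 and Mrgprb1 differed between the sides by more than these relatives did. The window before Mcpt4 lies at chr14:56062311-56062560, that before Cma1 at chr14:55944676-55944925, that before Mrgprb1 at chr7:48456343-48456592 and that before Mrgprb2 at chr7:48558087-48558336. Capitals mark matches to GATAA, the core bound by GATA factors, on either strand (GATAA or TTATC).
Mcpt4: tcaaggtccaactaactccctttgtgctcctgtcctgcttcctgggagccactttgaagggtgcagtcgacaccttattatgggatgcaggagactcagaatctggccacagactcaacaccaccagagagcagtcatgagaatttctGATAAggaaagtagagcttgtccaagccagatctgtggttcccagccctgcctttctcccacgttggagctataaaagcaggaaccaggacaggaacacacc
Cma1: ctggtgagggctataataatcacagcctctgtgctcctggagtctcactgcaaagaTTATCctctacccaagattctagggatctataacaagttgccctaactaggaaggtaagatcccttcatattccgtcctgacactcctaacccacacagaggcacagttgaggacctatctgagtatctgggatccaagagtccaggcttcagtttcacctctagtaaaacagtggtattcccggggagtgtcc
Mrgprb1: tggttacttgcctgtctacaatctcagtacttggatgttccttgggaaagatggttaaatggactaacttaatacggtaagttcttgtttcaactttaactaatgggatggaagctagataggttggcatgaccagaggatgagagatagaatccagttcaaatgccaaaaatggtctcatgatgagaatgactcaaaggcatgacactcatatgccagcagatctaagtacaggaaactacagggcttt
Mrgprb2: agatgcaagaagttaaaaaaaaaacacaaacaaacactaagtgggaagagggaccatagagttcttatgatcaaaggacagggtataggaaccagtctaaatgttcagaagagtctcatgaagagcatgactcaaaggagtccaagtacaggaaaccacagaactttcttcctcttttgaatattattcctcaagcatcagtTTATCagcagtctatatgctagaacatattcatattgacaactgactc
One match was present in 3 of the 4 windows and none in that of Mrgprb1, where 22.6% of 32851 mouse promoters of the same length held at least 1. The motif CATGTG, a form of the E-box bound by MITF, was searched on both strands (CATGTG or CACATG), can share an end base with GATAA, and was in 0 of the 4 windows against 12.3% of all promoters. The matches are letters in a window and were not compared with expression.

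Depth was alike on both sides. Reads on genes ran from 477525 to 1988661 per Gzmb-low BMCP (median 1233201) and from 561600 to 2152221 per mature mast cell, and the pools held 40303020 and 118831096 reads. BMCP number 40 stood apart from the other Gzmb-low cells: it had 8.17% mitochondrial reads where the others had at most 1.19%, 97.4 endogenous reads per ERCC spike-in read where the median was 770, 33.2% of reads outside annotated genes, and 54471 CPM of the nuclear RNA Malat1. Ratios of named genes that moved by more than 1.5-fold without it are given with and without it. The table's columns form 2 blocks, of which the first held 13 Gzmb-low BMCPs and 47 mature cells and the second 18 and 47. The labels did not say what the blocks are, so ratios within each block are given for genes that fell within 2-fold in 1 of them. Of 47 named genes past 2-fold in the pools, 24 were past it the same way in both blocks, 13 in the first only and 10 in the second only.

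The label of the cells was first set against the mature markers. In single Gzmb-low BMCPs, Mcpt4 ran from 24.4 to 46355 CPM with a median of 14294, against 22.4 to 42234 with a median of 25503 in mature mast cells. The median in Gzmb-high BMCPs was 26.5 CPM. The ranges of Gzmb-low BMCPs and mature cells overlapped almost entirely, with more of the BMCPs at the low end. Pooled Mcpt4 was 14119 CPM (14083 to 14156) in Gzmb-low BMCPs, 23090 (23063 to 23117) in mature cells and 1715 in Gzmb-high BMCPs. The log2 ratio of mature over Gzmb-low, computed here and below on pooled CPM + 1, was 0.71, and 0.68 without number 40. In 72.5% of all pairs of 1 mature and 1 Gzmb-low cell the mature cell was the higher one. Mrgprb1 had a median of 2467 CPM (4.68 to 5022) in Gzmb-low BMCPs and 3583 CPM (500.01 to 7195) in mature cells, with pooled levels of 2517 and 3764 CPM, a log2 ratio of 0.58 and a pair share of 71.7%. Both ratios kept their sign within each block of columns, at 0.88 and 0.57 for Mcpt4 and 0.49 and 0.65 for Mrgprb1.

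**Figure D1:**
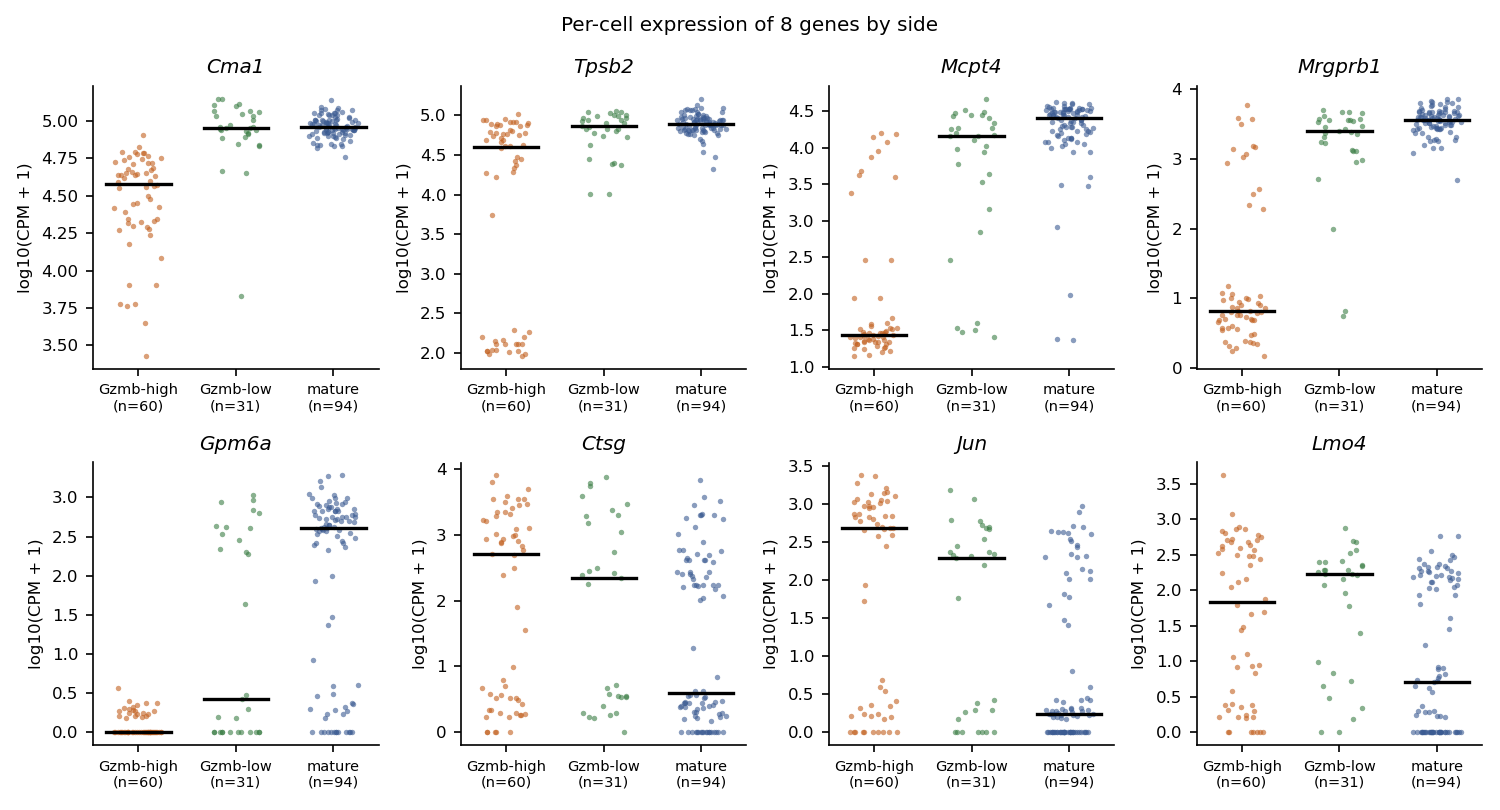
Level of 8 genes in every cell, as log10(CPM + 1), in 60 Gzmb-high BMCPs, 31 Gzmb-low BMCPs and 94 mature mast cells (points are cells, bars are medians). For Mcpt4 and Mrgprb1 most Gzmb-low BMCPs lie within the mature range, with 5 and 3 cells under 100 CPM, whereas the medians of Gzmb-high BMCPs are 26.5 and 5.62 CPM.

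Taken jointly, 23 of 31 Gzmb-low BMCPs (74.2%, exact Clopper-Pearson 95% interval 55.4 to 88.1) had Mcpt4 at 1000 CPM or more and Mrgprb1 at 100 CPM or more, as did 90 of 94 mature mast cells (95.7%, 89.5 to 98.8) and 4 of 60 Gzmb-high BMCPs (6.67%, 1.85 to 16.2). So most of these 31 cells carried both markers of the mature state, and they are named here by the sort and by Gzmb. Another 5 had only Mrgprb1 (numbers 4, 9, 64, 72 and 90), 1 had only Mcpt4 (number 50) and 2 had neither (numbers 31 and 40). Mcpt4 was under 100 CPM in 5 of 31 Gzmb-low BMCPs (16.1%, 5.45 to 33.7), while 3 of 94 mature cells lay that low (3.19%, 0.663 to 9.04). Of these 5 Gzmb-low cells, numbers 4, 9, 31 and 64 had Cma1 between 89051 and 139601 CPM. Their Tpsb2 (tryptase β) lay between 60205 and 100101 CPM, so in them low Mcpt4 did not go with low Cma1 or Tpsb2. Number 40 had 6792 CPM of Cma1. Ctsg (cathepsin G) was low in all 5, from 0.663 CPM in number 64 to 3.74 CPM in number 31. However, numbers 72 and 90, with Mcpt4 at 286 and 693 CPM, had 247 and 2370 CPM of Ctsg. Over the 31 cells the Spearman correlation of Mcpt4 with Ctsg was 0.23. Mrgprb1 was under 100 CPM in 3 of 31 Gzmb-low BMCPs (9.68%, 2.04 to 25.8) and 0 of 94 mature cells (upper limit 3.85%). Across the 31 cells, the Spearman correlation of Mcpt4 with Tpsb2 was 0.40 and with Mrgprb1 0.35, as a description of cells that share library preparation and a CPM total.

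Across the transcriptome, most genes lay within 2-fold of each other in the pools. Of 3779 genes with at least 50 CPM on either side (Gzmb and Cpa3 left out), 229 (6.06%) were 2-fold or more higher in mature mast cells and 324 (8.57%) 2-fold or more higher in Gzmb-low BMCPs, 14.6% in all. A gene under 50 CPM on its lower side entered these counts only through the side where it was high. Among genes with at least 200 CPM on either side the counts were 6 and 11. Without number 40 the counts were 234 of 3742 (6.25%) and 270 (7.22%), and 221 of the 229 and 253 of the 324 genes were among them. A single cell held at least 50% of the pooled reads in 68 of the 324 genes and in 0 of the 229, where the pool was of 94 cells, and number 40 was the cell with most reads in 73 of the 324. No gene reached a pair share of 75% in either direction: shares of pairs with the mature cell higher ran from 28.1% to 72.8% over the 3779 genes. Gzmb-high BMCPs set against the same mature cells gave 979 of 4344 genes (22.5%) 2-fold higher in the BMCPs and 271 (6.24%) 2-fold higher in mature cells, 28.8% in all. There the pair shares ran from 10.8% to 99.6%. Both 2-fold and a pair share of 75% were met by 30 genes higher in the Gzmb-high BMCPs (0.691%) and 60 higher in mature cells (1.38%), where Gzmb-low BMCPs had 0 and 0.

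**Figure D2:**
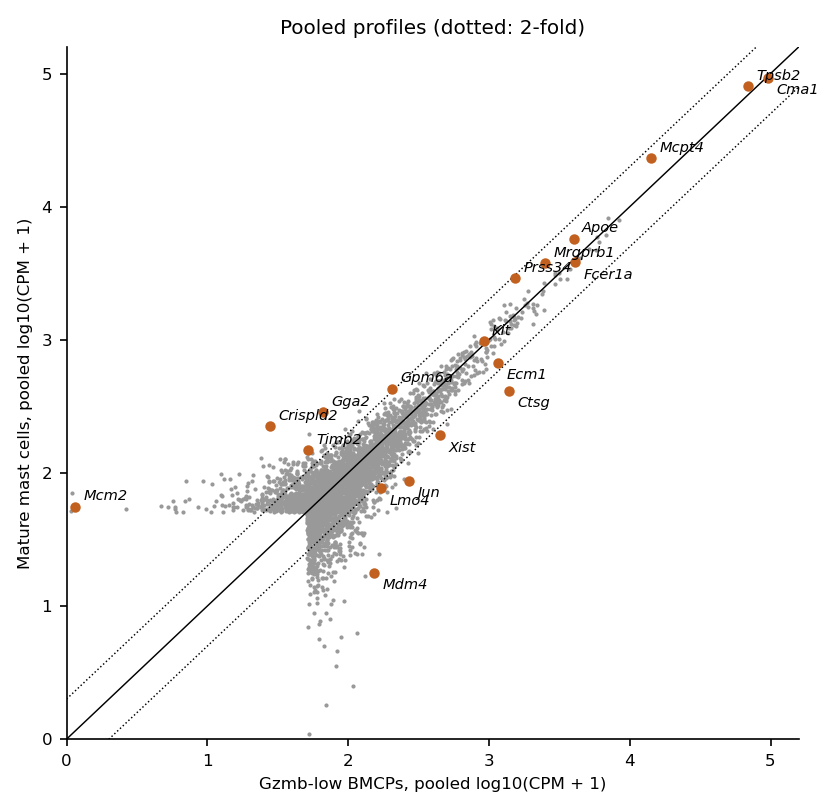
Pooled level of each of the 3779 genes in 31 Gzmb-low BMCPs (x axis) and 94 mature mast cells (y axis), as log10(CPM + 1), with equality as a solid line and 2-fold as dotted lines. The abundant proteases Cma1 and Tpsb2 lie within 2-fold, and genes past 2-fold are mostly those of low level, such as Crispld2 (27.05 and 224 CPM) and Mdm4 (152 and 16.8 CPM).

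The median log2 ratio of all 3779 genes was -0.10. It was 0.25 when each pool was scaled to its ERCC reads in place of its gene reads, so every ratio below would be higher by the difference on that scale. Ratios are therefore read against -0.10.

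Among their nearest neighbours, Gzmb-low BMCPs lay mostly with mature cells. On 10 principal components of the 1000 most variable genes, with Gzmb and Cpa3 left out, 217 of the 310 places (70%) among the 10 nearest cells of the Gzmb-low BMCPs fell to mature mast cells, 23.9% to other Gzmb-low BMCPs and 5.81% to Gzmb-high BMCPs. These classes made up 50.5%, 16.1% and 32.3% of all other cells. Of the 31 cells, 17 had 8 or more mature neighbours, while BMCP number 40 had 1 mature and 8 Gzmb-high neighbours. Gzmb-high BMCPs had 87.3% Gzmb-high and 5.50% mature neighbours. The first component (5.55% of variance) had medians of 7.95 in Gzmb-low BMCPs, 20.3 in mature cells and -30.7 in Gzmb-high BMCPs. On it, 27 of 31 Gzmb-low BMCPs and 91 of 94 mature cells lay above the highest Gzmb-high cell (-8.27). Numbers 27, 40, 50 and 83 lay within the Gzmb-high range. The components were computed from the same cells, so these positions are a description.

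**Figure D3:**
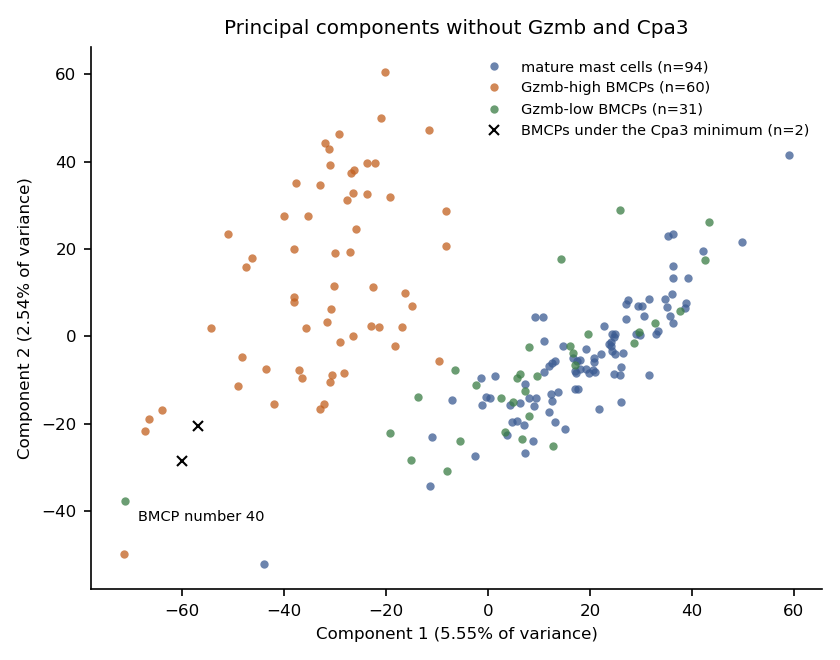
The first and second principal components (5.55% and 2.54% of variance, unitless scores) of 94 mature mast cells, 60 Gzmb-high BMCPs, 31 Gzmb-low BMCPs and 2 BMCPs under the Cpa3 minimum. On the first component 27 of 31 Gzmb-low BMCPs lie above every Gzmb-high BMCP, as 91 of 94 mature cells do, and number 40 lies at -71.2.

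Granule protease transcripts took a like share of reads in the pools of Gzmb-low BMCPs and mature cells. The list of 14 proteases took 25.6% of pooled reads in Gzmb-low BMCPs, 27.7% in mature mast cells and 14.4% in Gzmb-high BMCPs. Without Cpa3 and Gzmb the shares were 18.6%, 20.3% and 8.92%. The per-cell medians were 27.4% and 27.3%, so the pooled difference came from a lower tail: the first quartile was 22.1% in Gzmb-low BMCPs and 25.2% in mature cells, and number 40 had 2.81%. Of 7 tested members 6 lay within 2-fold, with a median log2 ratio of -0.03 (0.32 under ERCC scaling). Cma1, the α-chymase, had pooled levels of 95454 and 93353 CPM (log2 ratio -0.03, 0.32 under ERCC scaling), and Tpsb2 69154 and 80599 CPM (0.22). In Gzmb-high BMCPs these were 38112 and 39579 CPM. Tpsab1 (tryptase α/β) was at 1420 and 1391 CPM and in Gzmb-high BMCPs at 83.5 CPM. Reads of such close paralogs may have been split between family members by the counting.

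Ctsg and Prss34 were the proteases with the largest ratios in either direction. Ctsg, cathepsin G, was the 1 protease past 2-fold, at 1398 CPM in Gzmb-low BMCPs, 414 CPM in mature cells and 1169 CPM in Gzmb-high BMCPs (log2 ratio -1.75). It was on or off by cell: 17 of 31 Gzmb-low BMCPs and 43 of 94 mature cells had 100 CPM or more, with the highest cells at 7673 and 6870 CPM. The ratio was -2.64 in the second block of columns and -0.17 in the first. Prss34, a tryptase known from basophils and mast cells, was at 1526 and 2899 CPM (log2 ratio 0.93), with 9 of 31 and 37 of 94 cells at 100 CPM or more and medians of only 5.19 and 6.93 CPM. Tpsg1, the membrane-anchored tryptase γ, was at 2452 and 1667 CPM (-0.56, and -0.20 under ERCC scaling) and was above 100 CPM in every cell of both sides. The basophil protease Mcpt8 reached 100 CPM in 2 of 31 Gzmb-low BMCPs and 6 of 94 mature cells, where 37 of 60 Gzmb-high BMCPs did.

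**Figure D4:**
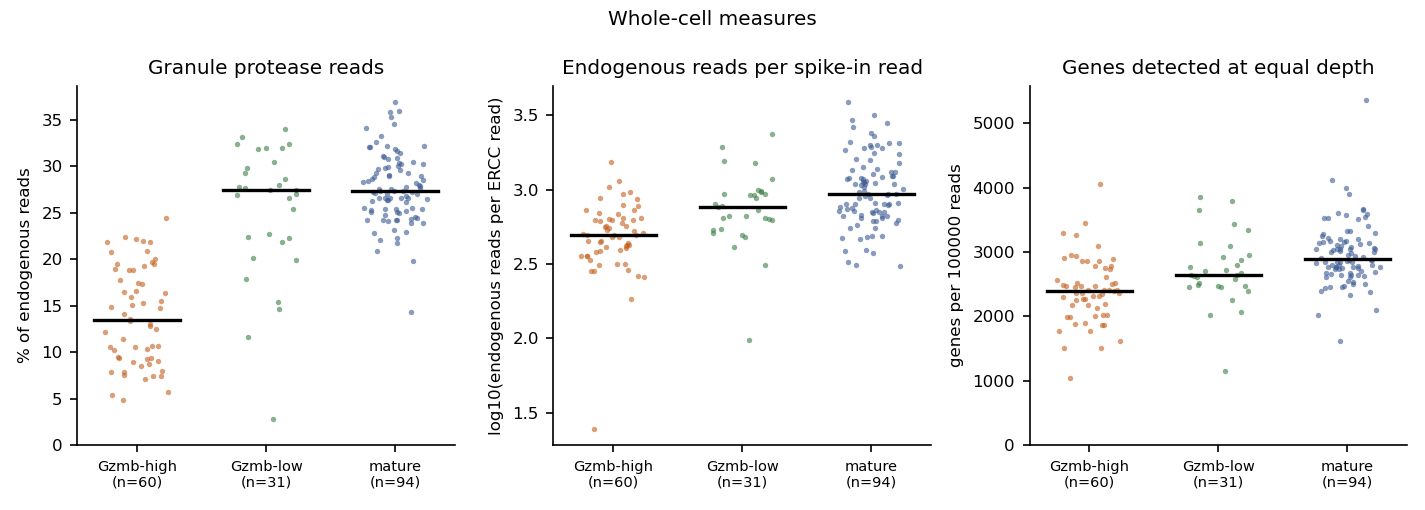
Per-cell share of reads on 14 granule proteases (%), endogenous reads per ERCC read (log10 scale) and genes detected after thinning each cell to 100000 reads, in Gzmb-high BMCPs, Gzmb-low BMCPs and mature mast cells (points are cells, bars are medians). The protease share has like medians in Gzmb-low and mature cells (27.4% and 27.3%) and a lower tail in the Gzmb-low BMCPs.

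Of the 6 tested amine genes 5 lay within 2-fold, where 14.6% of all genes were past it. Hdc, which makes histamine, was at 2068 CPM in Gzmb-low BMCPs and 1735 CPM in mature cells (log2 ratio -0.25, 0.10 under ERCC scaling, against 544 CPM in Gzmb-high BMCPs). Tph1, which starts serotonin synthesis, was at 2929 and 3052 CPM, and Slc18a2, the vesicular monoamine transporter, at 1040 and 897 CPM. The serotonin transporter Slc6a4 was at 782 and 1065 CPM (0.44), with medians of 1027 and 1011 CPM. However, 24 of 31 Gzmb-low BMCPs but 90 of 94 mature cells had 100 CPM or more. The 1 past 2-fold was Ddc, the decarboxylase that completes serotonin (12.4 and 55.1 CPM, 2.07). Most of the Gzmb-low reads of Ddc, 79.6%, came from 1 cell. The list's median was 0.08.

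Heparin and serglycin genes had a median of -0.07 over 11 tested genes (0.29 under ERCC scaling), with 1 past 2-fold in each direction. Of all genes, 8.57% were 2-fold higher in Gzmb-low BMCPs and 6.06% in mature cells. Srgn, the serglycin core, was at 5736 and 4768 CPM (-0.27, and 0.09 under ERCC scaling), and Ndst2, the sulfotransferase needed for mast cell heparin, at 1410 and 1857 CPM (0.40). The 2 of the list past 2-fold were Ext1, which extends the chain (38.3 and 96.2 CPM, 1.31, and 0.88 in the second block of columns), and Chst15, a chondroitin sulfotransferase (80.6 and 32.9 CPM, -1.27, and 0.34 in the first block of columns).

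Mrgprb2, the receptor for cationic secretagogues, was at 1525 CPM in Gzmb-low BMCPs, 1428 CPM in mature cells and 1980 CPM in Gzmb-high BMCPs. Every Gzmb-low BMCP and every mature cell had at least 100 CPM of it, with medians of 1072 and 1387 CPM, and 40 of 60 Gzmb-high BMCPs did. The log2 ratio of mature over Gzmb-low was -0.09 for Mrgprb2 (0.26 under ERCC scaling) and 0.58 for Mrgprb1.

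Of 18 tested genes of the IgE receptor and its signalling chain 0 were past 2-fold with all cells, where 14.6% of all genes were. The median was -0.06 (0.29 under ERCC scaling). Plcg2 had a ratio of 0.31 with all cells but 1.41, past 2-fold, without number 40. Within the first and second blocks of columns Plcg2 had -1.07 and 1.93. The receptor's α chain Fcer1a was at 4070 and 3844 CPM, the β chain Ms4a2 at 676 and 659 CPM and the shared γ chain Fcer1g at 3192 and 2874 CPM. The adaptor Lat had the lowest ratio of the list, at 294 and 174 CPM (-0.76, or -0.65 without number 40). The inositol phosphatase Inpp5d, a brake on the pathway, had the highest with all cells, at 237 and 356 CPM (0.58).

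Growth factor and cytokine receptors had a median of 0.05 over 10 tested genes. The stem cell factor receptor Kit was at 917 and 980 CPM. Il1rl1, the IL-33 receptor, was at 819 and 561 CPM (-0.54, -0.19 under ERCC scaling), and Il3ra at 98.8 and 167 CPM (0.75). Only Ifngr2, a chain of the interferon-γ receptor, was past 2-fold, at 45.4 and 92.6 CPM (1.01), with 0.06 in the first block of columns and 1.603 in the second. None of the 8 tested inhibitory receptors (median 0.09) or 6 purine receptors (median 0.03) was past 2-fold. Of all genes, 14.6% were past 2-fold in either direction.

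Among genes at 10 CPM or more in at least 50% of mature mast cells, those with the largest ratios in that direction were of low level and diverse function. Without that limit others had larger ones, such as Mcm2 (5.601), Crispld2 (3.00) and Mcm4 (2.42), described further on. Gga2, an adaptor that sorts cargo from the Golgi, had a median of 0.557 CPM in Gzmb-low BMCPs (0 to 614) and 225 CPM in mature cells (0 to 2050). Of 31 Gzmb-low BMCPs 8 (25.8%, 11.9 to 44.6) had 100 CPM or more, and 55 of 94 mature cells did so (58.5%, 47.9 to 68.6). Its pooled log2 ratio was 2.11 and its pair share, 72.8%, was the highest of the 3779 genes. In Gzmb-high BMCPs 11 of 60 cells had 100 CPM or more, so on this gene Gzmb-low BMCPs were nearer to Gzmb-high BMCPs than to mature cells in share of cells. Gna14, a G protein α subunit of the Gq class, followed at 51.9 and 196 CPM (1.90), and Tacc1, a centrosomal coiled-coil protein, at 34.4 and 126 CPM (1.84). For Gna14 the Gzmb-high BMCPs had 235 CPM, above the mature level.

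Timp2, a metalloproteinase inhibitor, was at 50.6 and 148 CPM (1.53), with 46.2% of its Gzmb-low reads in 1 cell. The other genes of the set were Gnpat (ether lipid synthesis, 1.45), Taf6l (a subunit of a histone acetyltransferase complex, 1.35), Rab18 (a small GTPase, 1.29), Naxe (repair of damaged NADH, 1.29), Sf1 (splicing, 1.25), Was (actin nucleation in blood cells, 1.25), Cct8 (a chaperonin subunit, 1.18) and Gpm6a (a membrane glycoprotein of neurons, 1.07). Within blocks of columns, Cct8 had a ratio of -0.33 in the first block and 2.63 in the second. Rab18 had 0.40 and 2.12. Sf1 had 1.91 and 0.50, and Was 2.05 and 0.93.

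Pair shares, which a single high cell cannot set, ranked other genes. After Gga2 and Mcpt4, the highest were Apoe (71.8%), Mrgprb1 (71.7%), Rab18 (71.3%) and Hspa8 (69.4%). Apoe, the lipid carrier, had a median of 3868 CPM (22.3 to 8449) in Gzmb-low BMCPs and 5526 CPM (1921 to 11828) in mature cells, with a log2 ratio of 0.53. All 94 mature cells and 30 of 31 Gzmb-low BMCPs had 1000 CPM or more. Hspa8, a constitutive chaperone, was at 48.9 and 88.6 CPM (0.84).

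**Figure D5:**
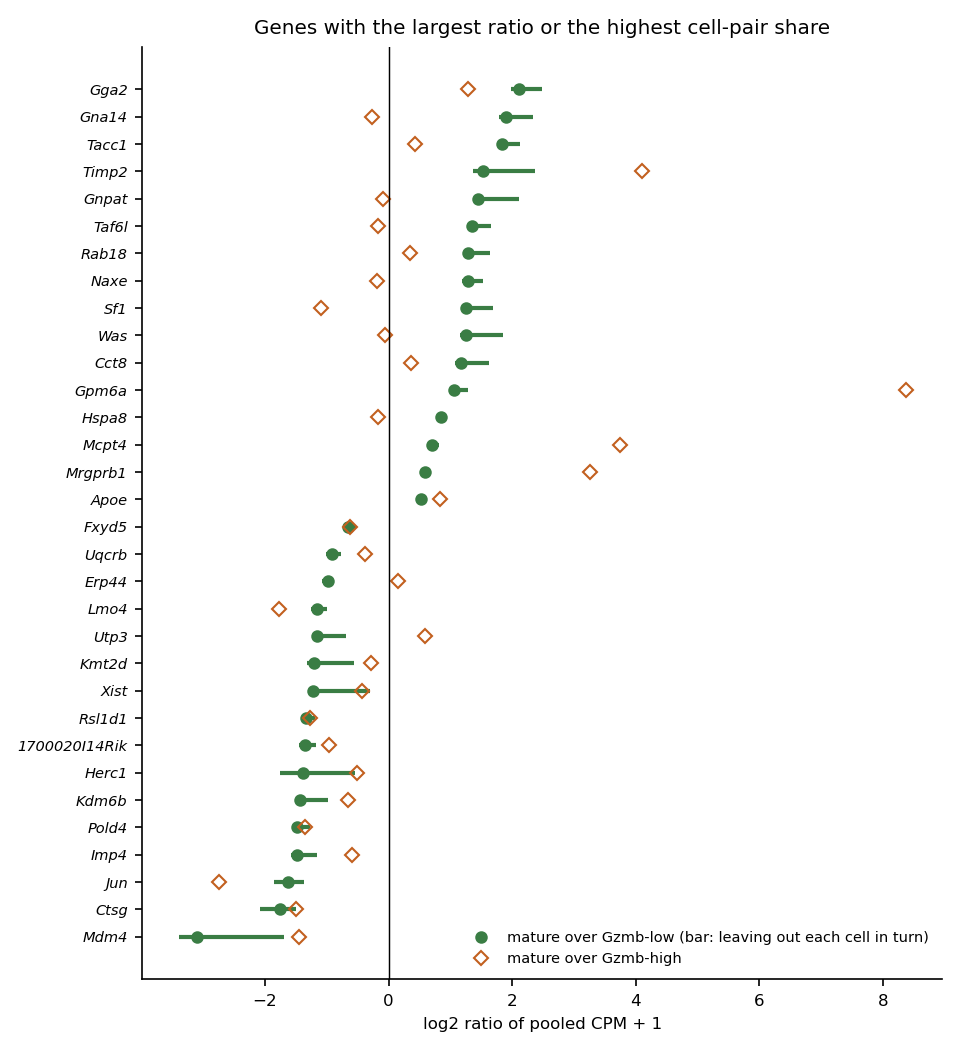
Log2 ratio of pooled CPM + 1 of mature mast cells over Gzmb-low BMCPs (filled circles; bars span the values from leaving out each cell in turn) and over Gzmb-high BMCPs (open diamonds), for the genes of largest ratio or pair share. The bars of Mdm4, Herc1, Xist and Kmt2d are wide because BMCP number 40 held much of their Gzmb-low reads, and Gpm6a, Timp2, Mcpt4 and Mrgprb1 have far larger ratios over Gzmb-high BMCPs.

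On the other side, the largest ratio among genes at 10 CPM or more in at least 50% of Gzmb-low BMCPs was that of Ctsg, followed by Jun. Jun, a subunit of the AP-1 factor, had a median of 193 CPM (0 to 1505) in Gzmb-low BMCPs, 0.753 CPM (0 to 930) in mature cells and 475 CPM in Gzmb-high BMCPs. It was at 100 CPM or more in 17 of 31, 22 of 94 and 35 of 60 cells, and its log2 ratio was -1.62 (-1.27 under ERCC scaling, and -0.89 in the first block of columns). Gzmb-low BMCPs lay between the other classes on this gene. Imp4 and Utp3, of ribosomal RNA processing, had ratios of -1.48 and -1.16. Those of Pold4, a small subunit of DNA polymerase δ, and of the nucleolar Rsl1d1 were -1.48 and -1.34. The noncoding 1700020I14Rik was at 165 and 64.1 CPM (-1.35).

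Several ratios on this side moved when number 40 was left out. Without it Herc1, a ubiquitin ligase, moved from -1.39 to -0.54, the histone modifiers Kdm6b and Kmt2d from -1.43 to -0.97 and from -1.20 to -0.55, Xist from -1.23 to -0.31 and Utp3 to -0.69. That cell held 48.2% of the Xist reads of the pool, at 12175 CPM, and 45.5% of those of Herc1. Mdm4, the p53 regulator, went from -3.10 to -1.70, with 63.3% of its reads in that cell. In the second block of columns, Kmt2d, Xist and Utp3 had ratios of -0.64, -0.35 and -0.81.

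The lowest pair share belonged to Lmo4, a LIM-only transcription cofactor: the Gzmb-low BMCP was the higher one in 71.9% of pairs. Lmo4 had a median of 170 CPM (0 to 755) in Gzmb-low BMCPs and 4.12 CPM (0 to 581) in mature cells, with 19 of 31 and 33 of 94 cells at 100 CPM or more and a log2 ratio of -1.16 (-2.02 and -0.49 in the first and second blocks of columns). Fxyd5, a regulator of the sodium pump, was at 2056 and 1304 CPM (-0.66), with medians of 1598 and 1158 CPM. Its level in Gzmb-high BMCPs was 2002 CPM. Mdm4, the complex III subunit Uqcrb (-0.91) and the endoplasmic reticulum chaperone Erp44 (-0.97) completed the 6 genes chosen by pair share, with Lmo4, Fxyd5 and Jun, and Uqcrb had -0.12 in the first block. Erp44 had -1.87 in the first block and -0.22 in the second.

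Of 10 genes chosen earlier as highest in BMCPs over mature cells, Gzmb among them, 9 were under the 50 CPM floor or part of the rule in this comparison and 1, Acap1, was tested. Scin (an actin-severing protein) and Lag3 (an inhibitory receptor) reached 100 CPM in 0 of 31 Gzmb-low BMCPs, against 44 and 39 of 60 Gzmb-high BMCPs, with an exact upper limit of 11.2% for a count of 0. Nkg7, a cytotoxic granule protein, did so in 3 of 31, 6 of 94 mature and 39 of 60 Gzmb-high cells. Itga4, the α4 chain that pairs with integrin β7, was the exception in share: 5 of 31 Gzmb-low BMCPs and 1 of 94 mature cells had 100 CPM or more (48.8 and 5.63 CPM pooled), beside 30 of 60 Gzmb-high BMCPs. Acap1, a partner in integrin recycling, was at 86.1, 26.4 and 286 CPM in Gzmb-low, mature and Gzmb-high cells. These 10 genes were chosen on the same cells and are no independent evidence.

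The gate itself used surface integrin β7. Its transcript Itgb7 was at 1504 CPM in Gzmb-low BMCPs and 1292 CPM in mature cells (log2 ratio -0.22, 0.13 under ERCC scaling, medians 1414 and 1096), with 30 of 31 and 90 of 94 cells at 100 CPM or more. Of the 10 tested integrin and homing genes 2 were past 2-fold, both higher in mature cells, where 6.06% of all genes were. They were Cd44 (31.7 and 89.4 CPM, 1.47), with 78.3% of its Gzmb-low reads in 1 cell, and Itga5 (29.9 and 71.2 CPM, 1.23). Within the first and second blocks of columns Cd44 had ratios of 0.50 and 5.80, and Itga5 1.29 and 0.95. Cd34, a progenitor surface protein that mast cells also carry, was at 240, 137 and 442 CPM in Gzmb-low, mature and Gzmb-high cells (-0.80, -0.45 under ERCC scaling). The list's median was -0.27 (0.08 under ERCC scaling). Over the 7 tested genes of the wider progenitor list the median was -0.07 (0.28 under ERCC scaling). None was past 2-fold, where 14.6% of all genes were. Ly6a (Sca-1), on that list, was at 1038 and 1315 CPM, against 97.3 CPM in Gzmb-high BMCPs.

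Another 10 genes were chosen earlier as highest in these mature mast cells over all BMCPs, the Gzmb-low ones among them. Their direction over either class of BMCPs is therefore no independent evidence. All were higher in mature cells than in Gzmb-low BMCPs, with ratios from 0.67 to 1.53 and a median of 0.94. Of the 10, 4 were past 2-fold, beside 6.06% of all genes. Over Gzmb-high BMCPs the median of the 10 was 5.28. Gpm6a was at 204, 428 and 0.301 CPM in Gzmb-low, mature and Gzmb-high cells, and at 100 CPM or more in 13 of 31, 63 of 94 and 0 of 60. Wfdc1, a protease inhibitor, was at 156, 248 and 0.223 CPM (0.67). Ecm1, a secreted matrix protein, went the other way between Gzmb-low and mature cells: it was at 1159, 671 and 64.3 CPM, with medians of 1120 and 611 CPM and a log2 ratio of -0.79 (-0.43 under ERCC scaling). It was highest in Gzmb-low BMCPs of the 3 classes and was named after its values were seen, as was Crispld2, a secreted protein at 27.05, 224 and 132 CPM. Crispld2 reached 100 CPM in 2 of 31 Gzmb-low BMCPs, 34 of 94 mature cells and 13 of 60 Gzmb-high BMCPs.

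Transcription factors had a median of -0.25 over 22 tested genes (0.11 under ERCC scaling), with 3 past 2-fold higher in Gzmb-low BMCPs and 1 in mature cells, beside 8.57% and 6.06% of all genes. The 3 were Lmo4, Zeb2, a zinc finger repressor (311 and 141 CPM, -1.14), and Mafg, a small Maf protein (52.8 and 13.4 CPM, -1.90, with -3.23 and -0.73 in the first and second blocks). The 1 was Stat3, a cytokine signal transducer (37.1 and 95.8 CPM, 1.34, and 0.92 in the second block). Gata2, which with Mitf drives the mast cell programme, was at 1094 and 1041 CPM, against 1606 CPM in Gzmb-high BMCPs. Mitf was at 116 and 97.5 CPM and Gata1 at 153 and 232 CPM.

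Immediate-early genes, which respond within minutes to stimulation or handling, had the lowest median of the lists with 5 or more tested genes, at -0.55. All 7 tested genes lay below 0, with Klf6 (-0.13) near the median of all genes (-0.10). Under ERCC scaling the list's median was -0.20 and Klf6 turned to 0.22. Jun and Zfp36, which destabilises cytokine messages (55.8 and 18.7 CPM, -1.53), were past 2-fold, as 8.57% of all genes were in this direction. Junb was at 177 and 99.3 CPM (-0.83) and Ier3 at 191 and 130 CPM (-0.55). The list's median ratio of mature over Gzmb-high cells was -1.49. In the first and second blocks of columns the medians were -0.92 and -0.48.

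Genes named for adhesion and signalling in neurons had a median of 0.61 over 8 tested genes, of which 6 lay above 0. Only Gpm6a was 2-fold higher in mature cells, as 6.06% of all genes were. The list's median ratio of mature over Gzmb-high cells was 5.62. This list was chosen with earlier results of these data known, so its direction is no independent evidence. Cadm1, an adhesion molecule of nerve contacts, was at 642, 789 and 19.7 CPM in Gzmb-low, mature and Gzmb-high cells. Kalrn, a guanine nucleotide exchange factor, was at 102, 193 and 15.5 CPM (0.91), and Lsamp, a neuronal adhesion protein, at 63.7, 103 and 0.183 CPM. In these 3 genes the pooled level of Gzmb-low BMCPs lay below the mature one and above that of Gzmb-high BMCPs. Dpysl2 and Kcne3 had ratios of -0.27 and -0.19 (0.08 and 0.16 under ERCC scaling).

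Of 34 tested lysosomal genes 31 lay within 2-fold, with a median of 0.17. The 3 past it were higher in mature cells, where 6.06% of all genes were: Gusb (β-glucuronidase, 1.59), Mcoln1 (a lysosomal calcium channel, 1.56) and Plbd2 (a phospholipase-like protein, 1.06). None of 18 exocytosis genes (median 0.07) and none of 24 genes of the endoplasmic reticulum (median 0.02) was past 2-fold, where 14.6% of all genes were. Within the first and second blocks of columns Plbd2 had ratios of 0.06 and 3.45, Gusb 5.77 and 1.01, and Mcoln1 1.23 and 1.82.

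Actin cytoskeleton genes had a median of -0.10 over 26 (0.25 under ERCC scaling), with Was and Actr3b past 2-fold (1.10 for Actr3b, 0.16 and 2.10 in the blocks of columns). Both were higher in mature cells, where 6.06% of all genes were 2-fold higher. Coro1a, an actin regulator of leukocytes, was at 399, 238 and 1243 CPM in Gzmb-low, mature and Gzmb-high cells (-0.74, -0.39 under ERCC scaling), and thymosin Tmsb4x at 2176, 1811 and 3898 CPM (-0.27, 0.09 under ERCC scaling). MHC class I genes had a median of 0.11 over 13 (0.21 without number 40). None was past 2-fold with all cells, where 14.6% of all genes were. H2-M3 moved from -0.34 to 1.44 without number 40, and had -1.10 and 4.82 in the first and second blocks of columns. B2m was at 6998, 8223 and 3809 CPM.

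Nuclear genes of oxidative phosphorylation had a median of -0.11 over 61 (0.24 under ERCC scaling) with 1 past 2-fold in each direction, and ribosomal protein genes -0.19 over 13 (0.16 under ERCC scaling). Lipid mediator genes had -0.34 over 5 (0.01 under ERCC scaling) and none past 2-fold. Among them Alox5, which starts leukotriene synthesis, was at 2080 and 1641 CPM, and its activating protein Alox5ap at 125 and 63.8 CPM (-0.96).

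The 31 Gzmb-low BMCPs held 0 reads of 6 erythroid genes and 1 read of 8 neutrophil genes. Of 12 T cell genes 9 were at 0, and of 12 macrophage genes 10 were at 0, Apoe giving nearly all reads of the rest. The highest summed level of 13 B cell genes was 1475 CPM, in number 18, with Pax5 at 0. Of 16 cytotoxic genes other than Gzmb 10 were at 0, and the summed level ran from 2.79 to 2035 CPM (median 529), against a median of 670 CPM in mature cells and 2327 CPM in Gzmb-high BMCPs. Summed levels of 14 basophil genes, several of which mast cells express, had medians of 4398, 4567 and 7619 CPM in Gzmb-low, mature and Gzmb-high cells.

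Of 21 S phase genes 6 were tested, and their median log2 ratio was 0.93. Mcm3 (-0.11, 0.24 under ERCC scaling), Slbp (0.10) and Rfc2 (0.28) lay within 2-fold. The 3 past 2-fold were helicase subunits higher in mature cells, where 6.06% of all genes were. They were Mcm2 (0.149 and 54.8 CPM), Mcm4 (11.6 and 66.6 CPM) and Mcm6 (28.2 and 86.3 CPM, 0.87 as a log2 ratio in the second block of columns). All 3 passed the floor of 50 CPM through the mature side only, so their direction and the median of the 6 depend on the floor. Over all 21 genes the pooled sums were 1023 and 1464 CPM, a log2 ratio of 0.52. Mcm2 reached 100 CPM in 0 of 31 Gzmb-low BMCPs and 15 of 94 mature cells, and the list's summed level had medians of 861 and 1244 CPM. A summed level of at least 1000 CPM over 26 G2/M genes was seen in 1 of 31 Gzmb-low BMCPs (number 50), 2 of 94 mature cells and 5 of 60 Gzmb-high BMCPs.

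Endogenous reads per ERCC read, a measure of the RNA caught from a cell, had medians of 770 in Gzmb-low BMCPs, 939 in mature cells and 497 in Gzmb-high BMCPs. The log2 ratio of the medians of mature over Gzmb-low was 0.29, with 0.46 in the first block of columns and 0.17 in the second. Genes detected at 100000 reads per cell had medians of 2642, 2896 and 2395, and without thinning 3904, 4134.5 and 3593.5. The quartiles of Gzmb-low BMCPs (2468.5 to 2935) and mature cells (2697.5 to 3169.75) overlapped on this measure.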

How the data were processed

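The authors deposited raw read counts per gene and cell, whole numbers with no normalization, made with GSNAP 2015-09-29 and HTSeq 0.5.3p3 on mm10 per the submitters' processing notes. Annotation release and strand setting were not given in the sources used here. The protocol (oligo-dT priming, 23 PCR cycles, ERCC spike-in) had no molecular identifiers per the labels, so PCR copies count as reads and exact Poisson and Clopper-Pearson intervals (95%) cover counting error only. Besides 46078 rows for genes there were 92 for ERCC and 5 summary rows, which stayed out of totals: reads outside genes were 13.7% in Gzmb-low BMCPs and 12.5% in mature cells, ambiguous ones 3.11% and 2.97%, unaligned ones 13.9% and 13.1%. The row for multiple alignments was 0 throughout, so reads shared by near-identical paralogs (Mcpt, Tpsb2 and Tpsab1, Mrgprb, H2) are uncertain, as are overlapping genes. GENCODE M21 gave symbols for 45143 identifiers (98.0%), and unmatched ones held 0.142% of reads.

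Counts were summed over the cells of a side, since no cell is tied to a mouse, and written as CPM over gene rows. Ratios are log2 of mature CPM + 1 over Gzmb-low CPM + 1, for genes with at least 50 CPM on either side. Pair shares compare every mature with every Gzmb-low cell, with ties split equally. Cells were thinned to 100000 reads for genes detected. Doublets were not called, as cells were sorted singly, and 0 cells had identical counts. Named genes were the 12 largest ratios in each direction with 10 CPM in at least 50% of the higher side's cells, the 6 highest pair shares in each direction, and 35 gene lists held in a file with 3 more matched by symbol pattern. A few genes that these rules name are not reported here. Members, lists and rules were chosen with earlier results of these data known. Pooled ratios were checked on simulated counts, and other scalings, filters, column blocks and left-out cells were tried. Tools were Python 3.11.15, numpy 2.4.6, pandas 2.3.3, scipy 1.17.1, scikit-learn 1.9.0, matplotlib 3.10.9 and edgeR 4.0.16 (TMM factors only) in R 4.3.3.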

Additional observations from a re-analysis of the deposited data

Results flagged for a closer look

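A B cell signal stood out in 2 BMCPs that the Cpa3 minimum kept out of every comparison. Cd74, the invariant chain of MHC class II, was at 49765 CPM in BMCP number 46 and 43636 CPM in number 80, where the highest mature mast cell had 94.8 CPM. Their Cpa3 levels were 113 and 160 CPM and their Gzmb levels 5.88 and 4.68 CPM, so without the Cpa3 minimum both would have counted as Gzmb-low.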

How the results depend on the processing

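The counts of genes 2-fold higher in Gzmb-low BMCPs and in mature cells, 324 and 229, were 169 and 455 under ERCC scaling, 1393 and 1820 with a floor of 5 CPM, 11 and 6 with a floor of 200 CPM, 815 and 612 in the first block of columns and 550 and 445 in the second, where fewer cells were pooled. Scaling by TMM, other pseudocounts, a mean over cells and other limits on Gzmb, Cpa3 or reads kept both counts within 1.5 times. The median ratio of all genes, -0.10, was -0.033 with TMM, 0.25 with ERCC scaling and -0.015 with the floor of 5 CPM. The protease share difference, 2.08 points, turned to -0.11 as a difference of per-cell medians. It was 2.41 as a difference of means, 1.79 without Cpa3 and Gzmb and also with Gzmb under 10 CPM, 2.37 with Gzmb under 1000 CPM, 3.79 with no Cpa3 minimum, 2.16 with a higher read minimum, 1.67 without number 40, and 2.30 and 1.94 in the blocks. Endogenous reads per ERCC read (0.29) gave 0.46 and 0.17 in the blocks. Genes detected (a difference of 254) gave 183.5 at 5 reads or more, and 458 and 80.5 in the blocks. The mature share of neighbours, 70%, was 75.5% with 5 components. Leaving out each cell in turn gave 270 to 345 and 223 to 255 genes, medians of -0.11 to -0.06, share differences of 1.36 to 2.51 points, ERCC ratios of 0.28 to 0.32 and 237 to 267 genes detected. The lowest share difference, 1.36, and the median of -0.06 came without BMCP number 77. Of 294 named genes, 66 had the other sign in the first block, 53 in the second, 83 under ERCC scaling and 11 without number 40. Of those past 2-fold in the pools, Cct8 (-0.33) and Chst15 (0.34) turned sign, both in the first block. Ratios of the other named genes moved by more than 1.5-fold for 93 in the first block, 55 in the second, 6 without number 40 and 24 without the Gzmb-low cell with most reads of a gene. The cause of these changes was not tested. No paired analysis was possible because cell numbers only name cells. A gene at 0 reads in the Gzmb-low pool was under 0.0744 CPM by the limit of 3 reads.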
